A study of Mus musculus with 11 samples.

Results

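The insulin-like growth factor family was followed in primary mouse hippocampal neurons given miR-181a-5p. The family was taken as 10 genes chosen by name, from the 48709 genes in the count files. They are the ligands Igf1 and Igf2, the receptors Igf1r and Igf2r, and the binding proteins Igfbp2, Igfbp3, Igfbp4, Igfbp5, Igfbp6 and Igfbp7. The cultures came from hippocampi of CD1 embryos at embryonic day 17, pooled over several embryos. On day in vitro 10 they received lipid nanoparticles (LNPs, particles that carry RNA into cells) at 0.01 µg/ml together with apolipoprotein E4 at 1 µg/ml. In the mimic group (n = 5) the LNPs carried miR-181a-5p mimic, and in the control group (n = 6) they carried a negative control oligonucleotide. Polyadenylated RNA was sequenced 48 h later, on day in vitro 12. There was no group without LNPs or without apolipoprotein E4.

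IGF1 and IGF2 are secreted peptides related to insulin, and both signal mainly through the tyrosine kinase IGF1R to the PI3K, AKT and TOR kinases. IGF2R has no kinase: it takes up IGF2 for degradation and carries lysosomal enzymes. The binding proteins hold IGFs outside the cell and so set how much reaches the receptor, and some also act on cells without IGFs. In the brain the family is known for roles in neuron survival, growth, myelination and memory, and the meninges and choroid plexus are well-known sources of IGF2.

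The sequences below are shown because a microRNA pairs with 3′ UTRs mainly through its seed, bases 2 to 8 from its 5′ end. Capitals mark the seed.
miR-181a-5p mimic: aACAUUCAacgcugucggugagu
negative control: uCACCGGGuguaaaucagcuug
In RefSeq (GRCm38.p6) mature miR-181a-5p is encoded at chr1:137966468-137966490 and chr2:38852741-38852763, both on the plus strand.

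The bases that pair with the mimic's seed are TGAATGT. They were sought on the transcript strand of every gene's longest 3′ UTR in GENCODE M21 (GRCm38), where 19.3% of 14512 tested genes hold them. Of the 10 members, 1 did, the ligand gene Igf1. Its site lies in a 3′ UTR of 6308 bases, and 56.2% of the 520 tested 3′ UTRs within 20% of that length hold the same letters. The site is shown with its flanks because it is the sole 7-base match in the family, with the match in capitals.
Igf1, chr10:87934144-87934150, plus strand: tctccttcttTGAATGTcaatgtgaaat
A shorter match, the 6 bases GAATGT, occurred alone in 4 members: Igf1r, Igfbp3, Igfbp4 and Igfbp5. The remaining 5 members (Igf2, Igf2r, Igfbp2, Igfbp6 and Igfbp7) held neither. None of the 10 was among the 1121 predicted targets that the study lists for the microRNA. Igf2 held 1 match to the seed of the negative control, CCCGGTG, as did 5.31% of the 2111 tested 3′ UTRs of like length. A match is a run of letters and not a measured site.

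The libraries held 17287168 to 48091231 counted reads, and control 1 was the deepest. After a filter on low counts 17365 genes were tested with edgeR's quasi-likelihood test and Benjamini-Hochberg adjustment, and a gene was called at an adjusted p under 0.05. This called 495 genes, or 2.85% of those tested. Of these, 188 were higher with the mimic (1.08%) and 307 lower (1.77%), and with upper-quartile scaling the split was 234 higher and 226 lower. The median log2 fold change over all tested genes was -0.0001.

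Markers of neurons were abundant in every sample, as the labels say, but so were markers of other cells. The 12 neuron markers summed to between 9449 and 9657 CPM (a gene's reads relative to the TMM-scaled total of its library) in control samples and between 9189 and 9335 CPM in mimic samples. The 9 astrocyte markers summed to 4901 to 5341 CPM in control and 4497 to 4813 CPM in mimic samples. The 13 markers of fibroblasts and meninges summed to 307.8 to 453.9 CPM in control and 473.1 to 622 CPM in mimic samples. The choroid plexus list, led by Ttr, summed to 266.2 to 337.9 CPM in control and 264.6 to 369.3 CPM in mimic samples. The 14 microglial markers summed to 35.3 to 37.2 CPM in control and 33.2 to 35.1 CPM in mimic samples. Oligodendrocyte lineage markers summed to 335.4 to 404.5 CPM in control and 307.3 to 354.8 CPM in mimic samples, and mural cell markers to 56.4 to 63.7 and 52.2 to 58.4 CPM. Endothelial markers summed to 44.3 to 52.2 CPM in control and 44.6 to 54.0 CPM in mimic samples. Of these markers, Tek, Cldn5 and Erg had 5 counts or fewer in every sample. Cdh5 had 23 to 89 counts per sample and was called higher (1.705-fold, adjusted p = 0.00713 by edgeR). Neural progenitor markers summed to 190.8 to 197.2 CPM in control and 189.1 to 212.3 CPM in mimic samples. Among single markers, Nefm and Slc17a7 (neuron), Slc1a2 (astrocyte) and Rgs5 (mural cell) were called lower. Besides Cdh5, Top2a (neural progenitor) and 4 fibroblast and meninges markers named below were called higher. No marker was called on the oligodendrocyte, microglial and choroid plexus lists. In bulk RNA, a change in the number of cells of a type and a change in RNA per cell cannot be told apart.

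All 10 members were detected, over a wide range of levels. Per kilobase of annotated exon, Igfbp2 stood highest in control samples, at 130.5 ± 9.82 CPM per kilobase (SD, n = 6). It was followed by Igfbp3 at 44.2 ± 0.738, Igfbp5 at 34.6 ± 5.40, Igfbp4 at 27.9 ± 1.07 and Igf2 at 23.2 ± 4.06 CPM per kilobase (SD, n = 6 each). The binding proteins thus took the first 4 places. Below these came Igf2r at 11.5 ± 0.319, Igfbp7 at 6.69 ± 0.757, Igf1r at 3.04 ± 0.104, Igf1 at 0.845 ± 0.0916 and Igfbp6 at 0.183 ± 0.0522 CPM per kilobase (SD, n = 6 each). The control ranges of Igfbp5 and Igfbp4 overlapped, as did those of Igfbp4 and Igf2. All other neighbours in this order had control ranges that did not overlap. These levels divide by the union of all annotated exons, 9904 bases for Igf1 and 16791 for Igf1r, so a gene expressed as a short isoform reads too low on this scale.

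**Figure D1:**
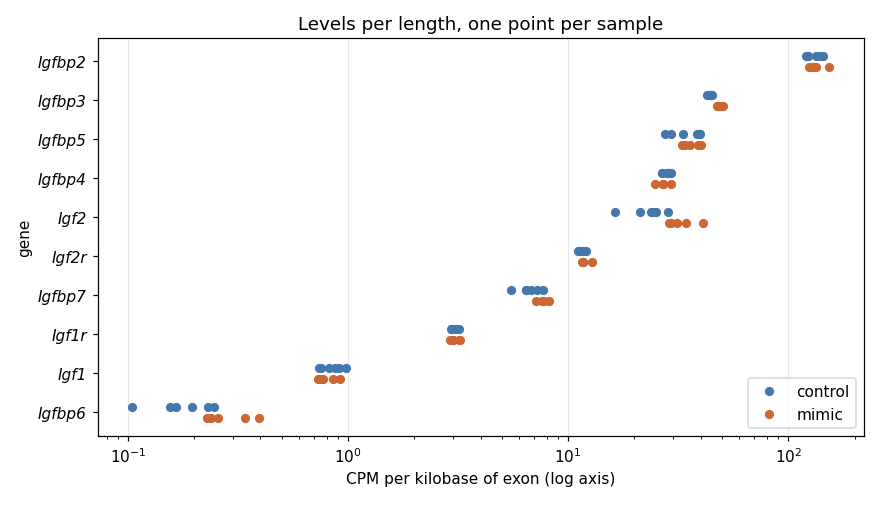
Level of each member per kilobase of annotated exon, as CPM per kilobase on a log axis, with 1 point per sample (blue, 6 control; orange, 5 mimic). Igfbp2 sits highest, at a control mean of 130.5, and Igfbp6 lowest, at 0.183. Igfbp5, Igfbp4 and Igf2 lie close together in the control samples.

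Among the binding proteins, Igfbp3 was higher with the mimic, and it was the 1 member called of the 10 tested, beside 2.85% of all tested genes. The other 9 members were not called, and Igf2 had the largest difference in mean CPM among these. Of the fitted log2 fold changes, 8 lay above 0 and 2 below, with a median of 0.06, beside 49.91% of all tested genes above 0. A single exact permutation test on each member's log2 CPM went over every way to draw 5 of 11 samples, two-sided, with a smallest possible p of 0.0022.

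Igfbp3 (chr11:7206086-7213923, minus strand) encodes the main carrier of IGFs in blood, which also acts on cells directly. Its control samples read 139.5, 137.9, 138.3, 139.5, 141.0 and 134.2 CPM, in the order control 1 to control 6. Its mimic samples read 148.1, 158.6, 155.6, 150.1 and 152.8 CPM. Every mimic sample lay above every control sample, and groups that do not overlap in this direction occurred in 1.16% of all tested genes. The means were 138.4 ± 2.31 CPM (SD, n = 6) and 153.0 ± 4.21 CPM (SD, n = 5). That is 1.11-fold (95% interval 1.07 to 1.15), a log2 fold change of 0.15 ± 0.03 (SE). The adjusted p was 0.00216 by edgeR, and the exact permutation p was 0.0022, the smallest it can give. The change is small, and it stood out because the samples were close: the control coefficient of variation was 1.67%, and counting error alone gives 1.72% at 2416 to 6638 counts per sample. Igfbp3 remained called under all 18 alternatives tried, with adjusted p from 8.41e-06 to 0.0166. Its 3′ UTR of 1435 bases holds 1 of the 6-base matches to the mimic.

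**Figure D2:**
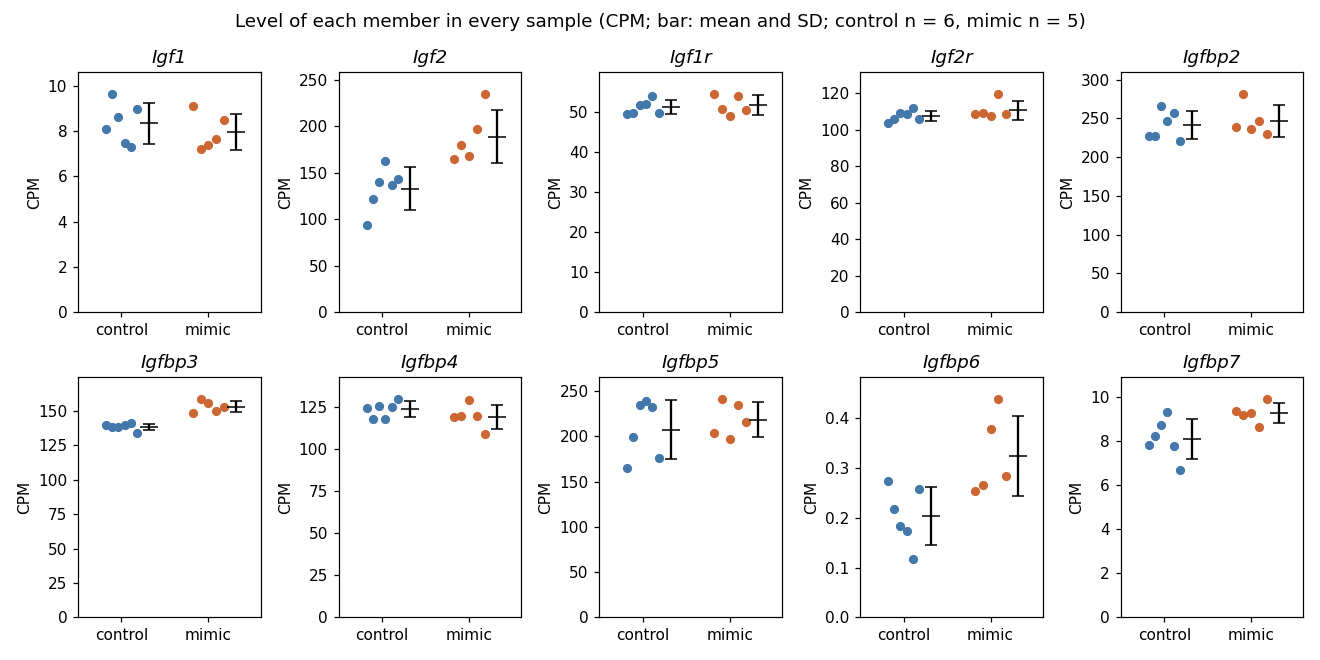
CPM of each of the 10 members in every sample (blue, 6 control; orange, 5 mimic; black bar, mean and SD), each panel on its own linear axis from 0. In the Igfbp3 and Igf2 panels every mimic sample lies above every control sample, with a narrow spread for Igfbp3 and a wide one for Igf2; in the other 8 panels the groups overlap.

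By the likeness of profiles, the mean absolute difference of mean-centred log2 CPM over the 11 samples, 3 genes were closest to Igfbp3 among 13928 genes whose mean reached 1 CPM. They were Yju2 (a splicing factor gene) at 0.02, Nrbp1 at 0.03 and Pdzd11 at 0.03 on the log2 scale. Of these, Nrbp1 was called, from 89.0 ± 2.02 to 96.0 ± 2.59 CPM (SD, n = 6 and 5; adjusted p = 0.0306 by edgeR). Yju2 and Pdzd11 were not called, at adjusted p of 0.449 and 0.181 by edgeR. All of these profiles are nearly flat. The genes were chosen for closeness to Igfbp3, so a small difference between the groups like its own is fixed by that choice.

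The ligand Igf2 (chr7:142650766-142666816, minus strand) had the larger difference and the larger spread. Its control samples read 93.9, 121.5, 139.7, 162.7, 136.3 and 143.2 CPM, and its mimic samples 164.3, 179.7, 168.0, 197.3 and 234.9 CPM. Every mimic sample lay above every control sample, as in 1.16% of all tested genes. Control 4 at 162.7 CPM and mimic 1 at 164.3 CPM all but met. Control 1 was the lowest of all samples and mimic 5 the highest. The means were 132.9 ± 23.2 CPM (SD, n = 6) and 188.8 ± 28.8 CPM (SD, n = 5). The fitted difference was 1.43-fold (95% interval 1.13 to 1.80), or 0.51 ± 0.15 on the log2 scale (SE). It was not called by edgeR, with p = 0.00664 and adjusted p = 0.119 across all genes, while the exact permutation test of Igf2 alone gave p = 0.0043. DESeq2's Wald test on the same counts did call it, with an adjusted p of 0.021. Over the 18 alternatives the log2 fold change ran from 0.42 (without control 1) to 0.59. The control coefficient of variation was 17.5% where counting error gives 1.76%, so depth was not what limited this gene.

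The summed markers of fibroblasts and meninges, like Igf2, were higher in every mimic sample than in every control sample. The neuron, astrocyte and microglia sums were lower in every mimic sample than in every control sample. All 13 markers on the fibroblast and meninges list had fitted log2 fold changes above 0, with a median of 0.46. Of all tested genes, 49.91% lay above 0. On the list 4 were called higher (Col6a1, Foxc1, Foxd1 and Hic1), beside 1.08% of all tested genes. No marker on the list was called lower. Their summed level was 307.8, 381.4, 420.1, 453.9, 410.1 and 421.1 CPM in control 1 to control 6. In mimic 1 to mimic 5 it was 492.6, 510.8, 473.1, 569.4 and 622 CPM. Control 1 was again the lowest, control 4 the highest of the controls, and mimic 5 the highest of all. The collagen gene Col1a2, shown because its profile was the closest to that of Igf2 after the values were seen, stood at 56.7 CPM in control 1 and 134.3 CPM in mimic 5, with means of 78.9 ± 12.1 CPM (SD, n = 6) and 115.2 ± 15.2 CPM (SD, n = 5). It was not called either, with an adjusted p of 0.0609 by edgeR. Other markers on the list differed less, such as Fbln1 with a log2 fold change of 0.12 and Islr with 0.15, neither called.

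Divided by the summed fibroblast and meninges list, Igf2 read 0.305 to 0.358 in control samples and 0.334 to 0.378 in mimic samples, and the groups overlapped. The mean log2 difference of Igf2 was 0.51 in CPM and 0.09 in this ratio, a comparison chosen after the values were seen and given with no test. Dividing by a list that was itself higher with the mimic lowers the difference of every gene alike. The same division took Igf1r from 0.016 to -0.406 and Igfbp3 from 0.145 to -0.278. The list also holds Col1a2, the gene closest to Igf2. The smaller value in the ratio is therefore not particular to Igf2. Igfbp3, like the summed list, was higher in every mimic sample than in every control sample. Within the controls, Igfbp3 ranged from 134.2 to 141.0 CPM and the list from 307.8 to 453.9 CPM, and no relation between them was tested. What part the fibroblast and meninges markers had in the Igf2 and Igfbp3 differences was not tested.

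**Figure D3:**
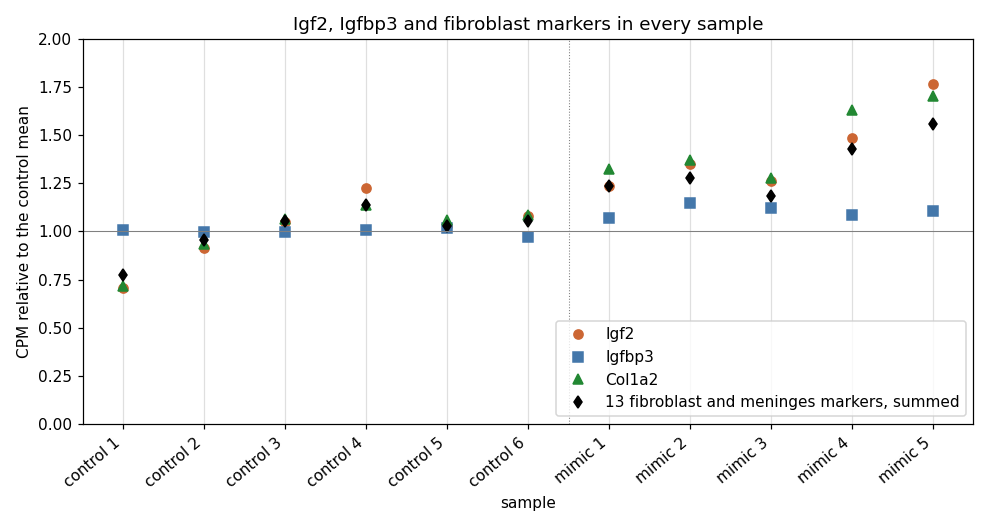
CPM of Igf2 (orange circles), Igfbp3 (blue squares), Col1a2 (green triangles) and the summed 13 fibroblast and meninges markers (black diamonds) in each of the 11 samples, each divided by its own control mean, so that 1 is the control mean. Col1a2 was chosen as the gene closest to Igf2, so their likeness is fixed by that choice. Igf2 and the summed markers are lowest in control 1, while Igfbp3 stays near 1 in the controls and slightly above it in the mimic samples.

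Igf2 shares annotated bases with other genes. The gene Gm49394 covers 3596 of its exon bases on the same strand and is not used here. The antisense gene Igf2os shares 98 exon bases with it, and the library kit named in the labels does not mark strand, so reads there cannot be assigned to 1 of the pair. Igf2os held 226 counts over all samples, far fewer than the 2336 to 4957 counts of Igf2 in each sample.

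The other ligand gene, Igf1 (chr10:87858265-87937042, plus strand), encodes the growth factor that mediates much of growth hormone's action. It read 8.11, 9.66, 8.64, 7.49, 7.30 and 8.99 CPM in control samples and 9.13, 7.22, 7.41, 7.65 and 8.48 CPM in mimic samples. The groups overlapped nearly completely, and only mimic 2 lay outside the control range. The fitted fold was 0.951 (95% interval 0.852 to 1.06), and Igf1 was not called (adjusted p = 0.746 by edgeR). So for the member with the 7-base match, the interval holds no change as well as a fall to 0.852-fold. It rested on 125 to 386 counts per sample.

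Neither receptor gene was called. Igf1r (chr7:67952827-68233668, plus strand), the signalling receptor, ranged from 49.3 to 53.8 CPM in control samples, with a median of 50.7, and from 48.8 to 54.5 CPM in mimic samples, with a median of 50.6. Its fold was 1.01 (95% interval 0.965 to 1.07; adjusted p = 0.857 by edgeR). Igf2r (chr17:12682406-12769664, minus strand) ranged from 103.7 to 111.9 CPM in control and from 107.3 to 119.6 CPM in mimic samples. Its fold was 1.03 (95% interval 0.988 to 1.08; adjusted p = 0.541 by edgeR). The antisense gene Airn overlaps Igf2r but shares 0 exon bases with it.

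The binding protein genes Igfbp2 and Igfbp5 lie side by side, at chr1:72824503-72852474 (plus strand) and chr1:72857932-72874884 (minus strand). Igfbp2, abundant in the developing brain, ranged from 221.5 to 266.1 CPM in control and from 229.3 to 281.9 CPM in mimic samples. Its fold was 1.03 (95% interval 0.928 to 1.13; adjusted p = 0.866 by edgeR), and without mimic 2 the fitted direction turned. Igfbp5, a binding protein that also attaches to extracellular matrix, read 164.6, 199.2, 234.9, 239.0, 232.0 and 175.9 CPM in control samples. Its mimic samples read 203.6, 241.4, 197.6, 234.5 and 215.5 CPM. Control 1 and control 6 were the low samples, below every mimic sample, and only mimic 2 lay above all controls. Igfbp5's fold was 1.06 (95% interval 0.883 to 1.27; adjusted p = 0.833 by edgeR), and its control coefficient of variation was 15.6% where counting error gives 1.40%.

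Igfbp4 (chr11:99041244-99054392, plus strand) encodes a binding protein that mostly restrains IGF action and is cut by the protease PAPP-A. It ranged from 117.7 to 129.6 CPM in control and from 109.0 to 129.2 CPM in mimic samples. Its fold was 0.966 (95% interval 0.919 to 1.01; adjusted p = 0.542 by edgeR), and it was not called, with 2 of the 6-base matches in its 3′ UTR of 2813 bases.

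Igfbp7 (chr5:77349240-77408041, minus strand) encodes a relative that binds insulin and only weakly IGFs and is secreted by vascular and stromal cells. Its control samples read 7.80, 8.22, 8.73, 9.33, 7.76 and 6.67 CPM, and its mimic samples 9.38, 9.15, 9.25, 8.64 and 9.90 CPM. The groups overlapped, with 2 of the 5 mimic samples above every control. Its fold was 1.14 (95% interval 1.03 to 1.27), and it was not called (adjusted p = 0.171 by edgeR). Igfbp7 shares 85 exon bases with the opposite-strand gene Polr2b, which held 28900 counts in all, so some of its 133 to 371 counts per sample may be Polr2b reads. Igfbp6 (chr15:102144362-102149511, plus strand), which prefers IGF2 over IGF1, was near the limit of detection, with 2 to 13 counts per sample. It read 0.117 to 0.273 CPM in control and 0.254 to 0.438 CPM in mimic samples. Its fold of 1.49 had a 95% interval of 0.957 to 2.33 (adjusted p = 0.417 by edgeR).

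**Figure D4:**
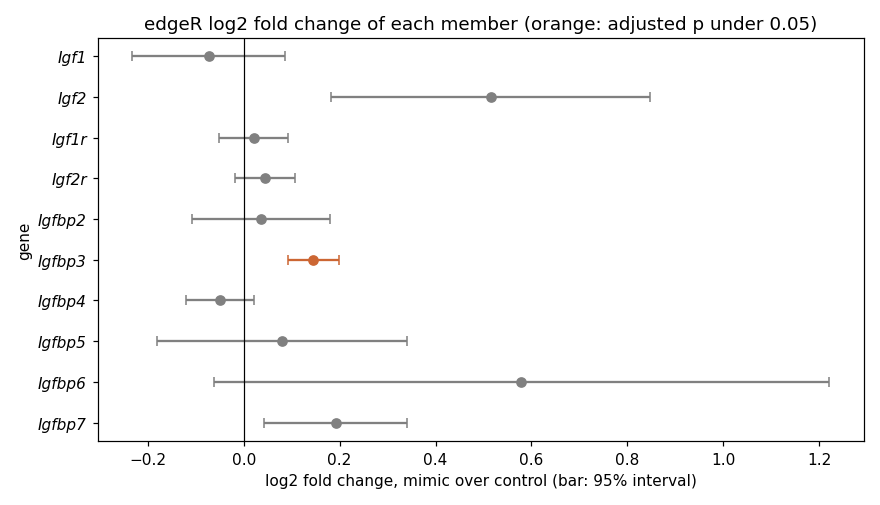
Fitted log2 fold change of each member, mimic over control, with its 95% interval (bars), from edgeR; orange marks an adjusted p under 0.05. Igfbp3 is the 1 orange point, at 0.15 with a narrow interval. Igf2 lies farther from 0, at 0.51, with a wider one, and Igfbp6 has the widest.

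The wider pathway was read from 8 lists of 49 genes around the family, of which 44 were tested. In all, 1 was called higher and 1 lower, beside 1.08% and 1.77% of all tested genes, with a median log2 fold change of -0.01. Those called were the adaptor gene Grb10 and the PI3K regulatory subunit gene Pik3r3, and both are among the study's predicted targets of miR-181a-5p. Among these pathway genes 8 were on that target list, and of these 1 was called lower, 1 was called higher and 5 lay below 0. With lists this short, 1 call in a direction is a description of that gene and not of the list.

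In the list of PI3K, AKT and TOR genes, 1 of 18 was called lower, none higher, and 14 lay below 0, with a median log2 fold change of -0.03. Of all tested genes, 49.91% lay above 0, and the count of 14 was not tested. Pik3r3, a subunit that links PI3K to phosphorylated receptors and adaptors, read 218.9, 223.4, 218.4, 214.7, 211.1 and 223.9 CPM in control samples. Its mimic samples read 202.4, 208.2, 207.0, 191.7 and 196.5 CPM. Every mimic sample lay below every control sample, a separation in this direction found in 1.73% of all tested genes. Pik3r3 fell by 0.12 ± 0.03 on the log2 scale (SE; adjusted p = 0.0122 by edgeR), and without mimic 4 the call was lost (adjusted p = 0.0656). Akt1, Akt2 and Mtor gave no call, with log2 fold changes of 0.01, 0.02 and -0.01.

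Among 9 receptor adaptors, Grb10 was called higher and none lower, with a median log2 fold change of 0.01 for the list. GRB10 binds the insulin and IGF1 receptors and dampens their signal. It read 62.5, 68.5, 71.2, 68.9, 66.8 and 65.2 CPM in control samples and 74.8, 72.3, 72.4, 74.1 and 76.5 CPM in mimic samples. Every mimic sample lay above every control sample, as in 1.16% of all tested genes, and control 1 was the lowest. Grb10 rose by 0.14 ± 0.03 on the log2 scale (SE; adjusted p = 0.0157 by edgeR), and without control 1 the call was lost (adjusted p = 0.0719). Shc1, another adaptor, had a log2 fold change of 0.24 and was not called (adjusted p = 0.2 by edgeR), and the insulin receptor substrates Irs1 and Irs2 had 0.02 and -0.05.

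The sites of these genes are shown because their directions differ although both hold the mimic's match. Capitals mark the match, which here is the 7 bases or the 7 bases and a following A.
Pik3r3, chr4:116299943-116299949, plus strand: agtgattctgTGAATGTgaaatggagag
Pik3r3, chr4:116300512-116300519, plus strand: cagtagtagcTGAATGTAcacttctgta
Grb10, chr11:11931086-11931093, minus strand: ttaattgacaTGAATGTAaaggggacag
Pik3r3, with 2 matches, was lower with the mimic, and Grb10, with 1, was higher. Over the pathway lists, 12 tested genes held the 7-base match, of which 1 was called lower, 1 higher, and 6 lay below 0. Among tested 3′ UTRs within 20% of their lengths, the 7-base match occurred in 32.4% for Pik3r3 and 31% for Grb10.

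**Figure D5:**
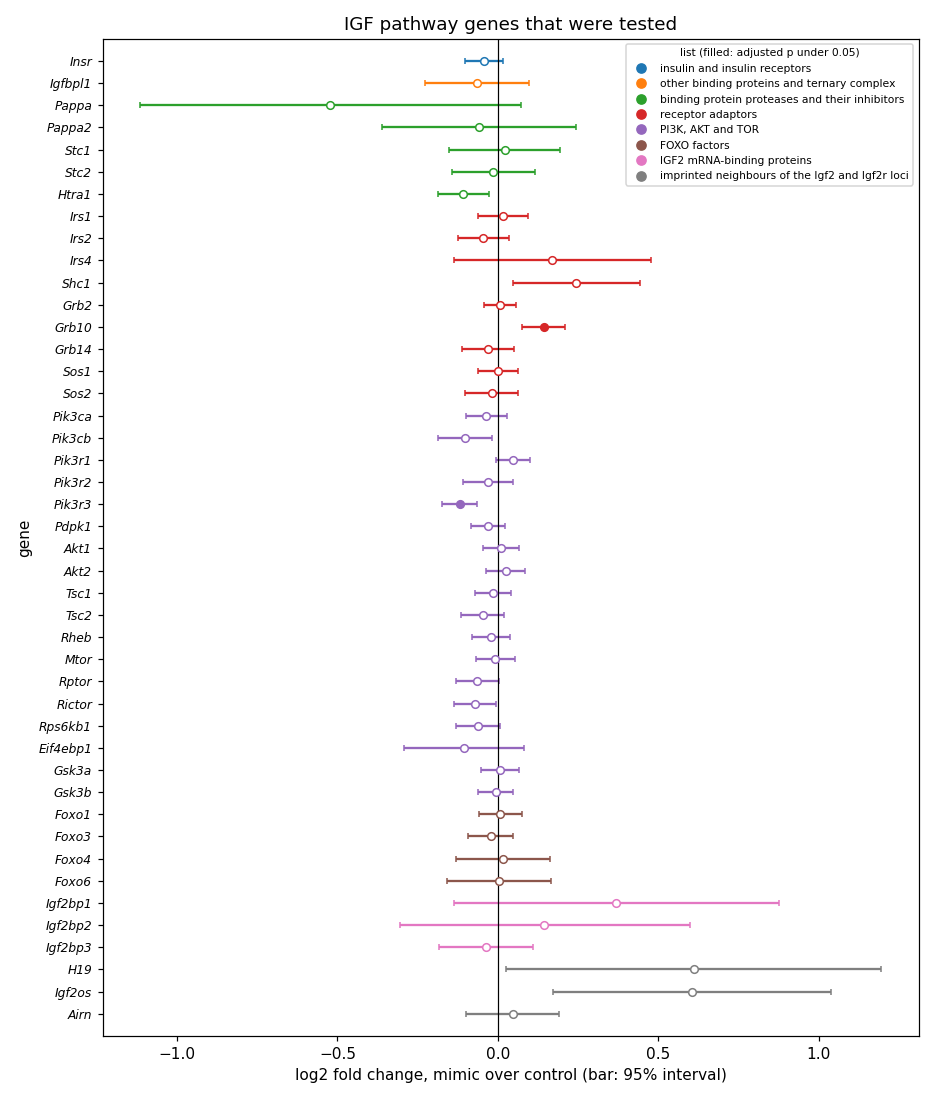
Fitted log2 fold change, mimic over control, with 95% interval, for the 44 tested genes of the 8 pathway lists (colours); filled points have an adjusted p under 0.05. The filled points are Grb10 above 0 and Pik3r3 below 0. Genes with few counts, such as Pappa, Igf2bp1, H19 and Igf2os, have wide intervals.

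No gene was called by edgeR in the other 6 lists, nor by DESeq2 or limma, and 3 of their 17 tested genes (Htra1, H19 and Igf2os) had an unadjusted p under 0.05, beside 15.7% of all tested genes. Of insulin and the insulin receptors, Insr alone was tested, at 72.6 ± 1.69 CPM (SD, n = 6) and 70.4 ± 1.87 CPM (SD, n = 5) with an adjusted p of 0.540 by edgeR. Ins1 had 0 counts in every sample, and Ins2 had 2 to 12. Igfbpl1 was the 1 further binding protein tested (log2 fold change -0.06, adjusted p = 0.777 by edgeR), while Igfbp1 and Igfals, the third part of the serum IGF complex, had at most 1 and 4 counts. Of 5 proteases and inhibitors of the binding proteins, Htra1 had the smallest p, at 33.9 ± 1.51 CPM (SD, n = 6) and 31.5 ± 1.03 CPM (SD, n = 5), with adjusted p = 0.141 by edgeR. Foxo3 had the smallest p of the 4 FOXO factors (adjusted p = 0.84 by edgeR), and Igf2bp1 that of the 3 IGF2 mRNA-binding proteins (adjusted p = 0.528 by edgeR).

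The last list held the imprinted non-coding neighbours of Igf2 and Igf2r. H19, which lies beside Igf2, had 4 to 14 counts per sample and a log2 fold change of 0.61 ± 0.28 (SE; adjusted p = 0.291 by edgeR). Igf2os, with 14 to 33 counts per sample, had 0.60 ± 0.21 (SE; adjusted p = 0.129 by edgeR). Both lie on the side of Igf2, at 0.51, and none of these was called by edgeR. Airn, antisense to Igf2r, had a log2 fold change of 0.05 ± 0.07 (SE, adjusted p = 0.842 by edgeR), beside 0.04 for Igf2r.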

How the data were processed

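Per the labels, 11 libraries of primary hippocampal neurons fell into 6 control and 5 mimic samples. The authors deposited raw counts per gene, made with FastQC 0.11.5, STAR 2.5.2b and featureCounts (Subread 1.5.1) on mm10. They also deposited a table of signal, counts divided by 1 factor per sample, for 16921 genes. Counting options are not given in the sources used here. A gene was tested where 50% or more of the samples had 5 or more counts, using edgeR 4.0.16 (TMM factors, robust quasi-likelihood fit, R 4.3.3) on all samples, with Benjamini-Hochberg adjustment over 17365 genes. CPM used library totals (17287168 to 48091231 counts) multiplied by TMM factors, and log2 CPM a prior count of 2. Exact permutation tests used Python 3.11.15. DESeq2 1.42.0, limma 3.58.1 (signal table, pseudocount of 1), other factors and filters, each sample left out and a replicate block were alternatives. Exon lengths, overlaps and 3′ UTRs came from GENCODE M21, in which 48349 of 48709 gene IDs matched. The 10 members and all lists were chosen with earlier results of these data known. The pathway lists leave out 2 genes whose results are not reported here. The text names all members, each called pathway gene, the gene of smallest p in a list without calls, and the 3 genes of closest profile to a called member; other genes are named as examples. The labels do not say whether samples came from separate cultures, so p-values measure the spread between these samples. Intervals cover 95%. The script was tested on simulated data.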

Additional observations from a re-analysis of the deposited data

Results flagged for a closer look

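Within the 5 mimic samples, mimic 4 stood apart in Igf2r. Its log2 CPM was 6.90 where the nearest sample had 6.77, and this gap was 0.866 of the group's whole range, against Dixon's critical value of 0.71. The search covered 44 series of values (depth, members, called pathway genes and marker lists, each in both groups), among which chance gives about 2.2 such gaps, so 1 is no more than that. Without mimic 4 the log2 fold change of Igf2r was 0.02, against 0.04 with it, and it was called in neither fit.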

How the results depend on the processing

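Of 179 values of the members' log2 fold changes under the 18 alternatives, 177 kept their direction and their side of the threshold. The exceptions were Igf2, called by DESeq2 alone, so that 2 members were called there against 1 under the 17 others, and Igfbp2, which ran from -0.016 (without mimic 2) to 0.067 with 1 sample left out. Igfbp6 could not be fitted with a minimum of 10 counts. The count of called genes, 495, was 785 with no count filter and ran from 218 (without control 1) to 491 with each sample left out in turn; it was 237 without mimic 2 and 278 without mimic 4. The deviations of same-numbered samples had correlations of -0.0232 to 0.0158 over 5 pairs, within the -0.0728 to 0.0781 of 25 other pairs. These values gave no sign that the numbers pair the samples, but they cannot show whether samples shared a culture. With a replicate block, 328 genes were called, Igfbp3 stayed called, and Grb10 was not (adjusted p = 0.0522 by edgeR). Igf2 relative to the fibroblast and meninges list, chosen after the values were seen, moved from 0.51 to 0.09. This division lowers every gene alike, and it moved Igfbp3 from 0.145 to -0.278. Depth limits Igfbp6, H19 and Igf2os, and leaves Igf1 and Igfbp7 with counting errors of about 7% per sample.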

Other observations

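By the same measure of profile likeness used for Igfbp3, the genes closest to Igf2 over the 11 samples were Col1a2 at 0.04, Mrc2 at 0.06 and Col3a1 at 0.07 on the log2 scale, among 13928 genes compared. Igf2 was chosen for this after its values were seen. Col1a2 and Col3a1, which encode fibrillar collagen chains, are on the fibroblast and meninges list, and Mrc2, a receptor that takes up collagen, is not. Mrc2 was called higher (adjusted p = 0.0417 by edgeR), its 6 control samples averaging 11.6 ± 1.65 CPM (SD) and its 5 mimic samples 15.5 ± 1.81 CPM (SD), while Col3a1 was not (adjusted p = 0.142 by edgeR).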
